A study of Mus musculus with 4 samples.

Results

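The subject is 7 genes of GABA-A receptor subunits, Gabra2, Gabra3, Gabra4, Gabra5, Gabrb1, Gabrb2 and Gabrd, picked by symbol from count tables of 24100 genes, and all 7 were present and passed the filter on low counts. The samples were 3 immunopurified (IP) libraries and 1 Input library made from prefrontal cortex of male adults of the Crh-IRES-Cre line, whose Cre recombinase is driven by the Crh locus, home of the stress peptide corticotropin-releasing hormone. The IP libraries hold RNA captured with antibodies to EGFP from tagged polysomes, a method named translating ribosome affinity purification, and the Input is the uncaptured RNA of the tissue. Each library came from 5 pooled males, all of them untreated and all carrying the same allele. The allele that supplies the EGFP tag is not given in the sources used here, nor whether the Input and the IP libraries came from the same animals. Replicate spread therefore means the spread between these IP libraries, which may in part be technical.

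GABA-A receptors are chloride channels opened by GABA, the main inhibitory transmitter of the cortex, and are built as a ring of subunits around a pore. Most hold alpha and beta subunits, which form the GABA binding site between them, together with a gamma subunit, which places the receptor at synapses and makes the benzodiazepine site with certain alpha subunits, or a delta subunit, found in receptors outside synapses that carry a steady, tonic current. The alpha subunit sets much of the pharmacology: receptors with alpha2, alpha3 or alpha5 respond to diazepam, whereas those with alpha4 do not.

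Among the 7 genes, 3 lie in a cluster. On chromosome 5 (GRCm38) Gabra2 (Entrez 14395, 70957597 to 71095849, minus strand), Gabra4 (Entrez 14397, 71569749 to 71658308, minus strand) and Gabrb1 (Entrez 14400, 71658113 to 72149037, plus strand) follow one another, and Gabra4 and Gabrb1 overlap head to head. Only 46 exon bases are common to the pair, 0.756% of those of Gabra4 and 0.332% of those of Gabrb1. Gabrb2 (Entrez 14401, 42419757 to 42629028) is on chromosome 11, Gabra5 (Entrez 110886, 57407672 to 57510059) on chromosome 7, Gabra3 (Entrez 14396, 72432681 to 72656848) on chromosome X, and Gabrd (Entrez 14403, 155384980 to 155398112) on chromosome 4. All 7 are annotated as protein coding, and of the exon bases of Gabra5 4.98% lie within the antisense gene model Gm9962. Whether strands were told apart in the counting is not given in the sources used here, so reads of these few shared bases cannot be assigned.

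Upstream sequences are shown for the gene that lay above the Input in every IP library, Gabrb2, and for those that lay below it in every IP library, Gabra3, Gabra4 and Gabra5, to show how unlike their starts are. They are the stretches before a RefSeq start site (GRCm38.p6) that hold no annotated GENCODE exon, read 5′ to 3′ on the strand of the gene, at chr11:42420190-42420439 for Gabrb2 (plus strand), chrX:72656920-72657169 for Gabra3, chr5:71658364-71658558 for Gabra4 and chr7:57510060-57510309 for Gabra5 (minus strand). Capitals mark matches on either strand to the TATA box TATAAA, the GC box GGGCGG, the cyclic AMP response element TGACGTCA or the EGR motif GCGNGGGCG.
Gabrb2: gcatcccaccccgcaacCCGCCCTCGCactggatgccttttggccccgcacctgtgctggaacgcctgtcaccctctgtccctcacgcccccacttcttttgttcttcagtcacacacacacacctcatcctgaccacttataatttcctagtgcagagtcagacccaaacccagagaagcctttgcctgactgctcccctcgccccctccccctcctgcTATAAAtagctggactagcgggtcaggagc
Gabra3: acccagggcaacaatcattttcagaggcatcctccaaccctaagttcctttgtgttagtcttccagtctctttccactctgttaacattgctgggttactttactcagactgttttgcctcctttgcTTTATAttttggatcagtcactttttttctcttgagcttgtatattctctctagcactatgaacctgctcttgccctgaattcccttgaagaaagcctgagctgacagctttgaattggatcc
Gabra4: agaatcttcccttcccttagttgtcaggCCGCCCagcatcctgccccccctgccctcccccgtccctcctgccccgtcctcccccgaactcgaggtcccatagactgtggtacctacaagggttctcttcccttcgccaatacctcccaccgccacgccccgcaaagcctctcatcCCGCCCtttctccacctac
Gabra5: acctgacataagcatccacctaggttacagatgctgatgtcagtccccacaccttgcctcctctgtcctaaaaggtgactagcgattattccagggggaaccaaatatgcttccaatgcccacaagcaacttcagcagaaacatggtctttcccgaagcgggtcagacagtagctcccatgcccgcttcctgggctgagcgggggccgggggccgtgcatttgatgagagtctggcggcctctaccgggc
In Gabrb2 the TATA box ended 24 bases before the start site, and near the other end a GC box overlapped an EGR match. Gabra3 held a TATA box on the opposite strand and no CpG dinucleotide in its whole window of 300 bases. Gabra4 held 2 GC boxes, on the opposite strand, and Gabra5 held none of the motifs. RefSeq gives Gabrb2 and Gabra3 further start sites: the other windows of Gabrb2 held none of the motifs and had a GC content of 54.7% and 41.0%, and the other window of Gabra3 held the TATA match too and had 39.3%. The GC content of the windows shown was 59.0% for Gabrb2, 43.0% for Gabra3, 58.7% for Gabra4 and 56.7% for Gabra5, against a median of 52.7% over 32851 promoter windows of the same length. Of all those windows 13.6% held the TATA box, 35.7% the GC box, 1.79% the cyclic AMP response element and 5.55% the EGR motif. A match describes these letters and says nothing about binding.

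None of the 7 subunit genes differed between IP and Input by the quasi-likelihood test of edgeR with Benjamini-Hochberg adjustment over 14636 genes (adjusted p = 0.9999 for each), and 0 of 7 passed an unadjusted p under 0.05, DESeq2 or limma-voom. In all, 0.458% of the genes tested were called by edgeR (0.41% higher and 0.0478% lower in IP), 4.43% had an unadjusted p under 0.05, and 0.348% were called by limma-voom. DESeq2 called 1.38% of the 13217 genes to which it gave an adjusted p. The edgeR calls were 60 higher and 7 lower, a split that was 50 to 15 with library totals and 51 to 15 with upper-quartile factors. As a check of the capture, Crh was at 501, 174 and 193 CPM in IP 1, 2 and 3 against 1.32 CPM in the Input (log2 fold 7.77 ± 0.87 SE, adjusted p = 9.66e-05), and Gad1, a GABA-synthesizing enzyme gene, had a log2 fold of 3.18 ± 0.45 (SE, adjusted p = 0.000692). For the related enzyme gene Gad2 it was 2.38 ± 0.39 (adjusted p = 0.00279), and for Slc17a7, the glutamate transporter gene of excitatory neurons, it was -1.22 ± 0.41 (adjusted p = 0.535). CPM are counts scaled by library size and by TMM factors, which correct for composition, and a log2 fold is IP over Input. The values rest on 23548375, 10031072 and 12150980 counts in IP 1, 2 and 3 and 14474529 in the Input, where 1 count was worth 0.0436, 0.107, 0.0862 and 0.0600 CPM in the same order. Since the Input was a single library, the residual spread of a gene rests on the 3 IP libraries alone (2 degrees of freedom) and is moderated toward a spread estimated over all genes. The error of a fold thus mostly reflects the spread of genes in general, and the Input is assumed to vary likewise.

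**Figure D1:**
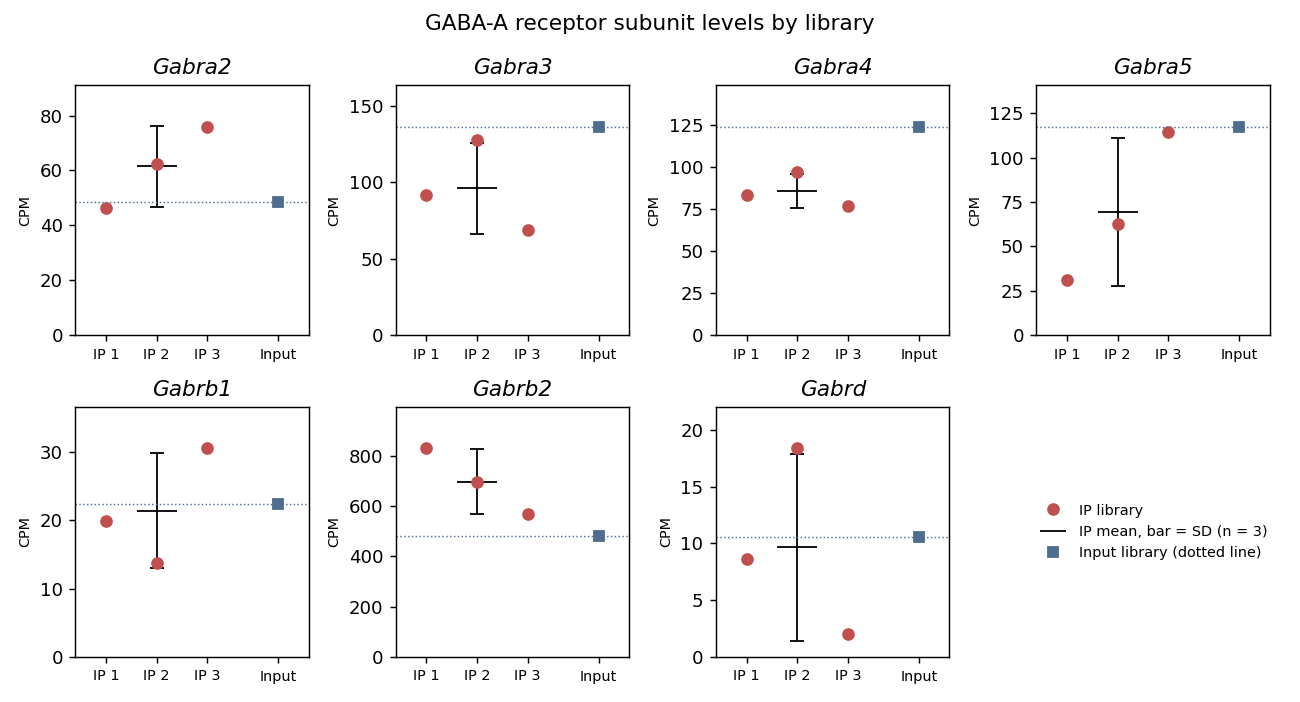
Level of each subunit gene in CPM (vertical axes, each from 0) in the 3 IP libraries (circles) and the Input (square and dotted line), with the IP mean and SD. Gabrb2 lies above the Input in all 3 IP libraries, Gabra3, Gabra4 and Gabra5 lie below it in all 3, and Gabra2, Gabrb1 and Gabrd lie on both sides.

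Among the alpha subunits, Gabra2 encodes alpha2, a subunit of synaptic receptors that is also known from the axon initial segment of pyramidal neurons. It was at 46.3, 62.2 and 76.0 CPM in IP 1, 2 and 3, against 48.6 CPM in the Input. The IP libraries thus lay on both sides of the Input, with IP 3 the highest, and the log2 fold was 0.34 ± 0.68 (SE; 95% interval -1.08 to 1.76).

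Gabra3 encodes alpha3, a subunit of synaptic receptors found in the deeper cortical layers and on monoamine neurons. Its level was 91.5, 127.9 and 68.8 CPM in IP 1, 2 and 3 and 136.6 CPM in the Input. All 3 IP libraries lay below the Input, IP 2 by little, and the log2 fold was -0.51 ± 0.53 (SE; 95% interval -1.62 to 0.60).

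Gabra4 encodes alpha4, which pairs with delta in receptors outside synapses of the thalamus, striatum and dentate gyrus. It was the most even of the 4 alpha genes across the IP libraries, at 83.2, 96.8 and 76.8 CPM in IP 1, 2 and 3 against 123.9 CPM in the Input. Each IP library was below the Input, and the mean in IP was 85.6 ± 10.2 CPM (SD, n = 3), with a log2 fold of -0.53 ± 0.53 (SE; 95% interval -1.65 to 0.58).

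Gabra5 encodes alpha5, best known from the hippocampus, where it contributes to tonic inhibition of pyramidal cells. It was at 31.3, 62.4 and 114.3 CPM in IP 1, 2 and 3, against 117.5 CPM in the Input. IP 1 was far below the Input while IP 3 nearly met it, so the IP mean of 69.4 ± 42.0 CPM (SD, n = 3) covers a wide spread. The log2 fold was -0.76 ± 0.64 (SE; 95% interval -2.11 to 0.59), the lowest of the 7, and ran from -1.33 without IP 3 to -0.43 without IP 1. In IP 1, 2 and 3 the summed level of 18 excitatory neuron markers was 4348, 7559 and 6129 CPM, against 6991 CPM in the Input, and none of the 18 was at 0 throughout IP. In IP most of that sum was Camk2a, a kinase gene of excitatory neurons, at 2590, 4976 and 4160 CPM in IP 1, 2 and 3 and 2902 CPM in the Input. Without Camk2a the sums were 1759, 2584 and 1968 CPM in IP 1, 2 and 3, against 4089 CPM in the Input. Each IP library had less than the Input of 13 of the 18 genes, and for 0 of the 18 did each have more. Among all genes tested these shares were 24.1% and 19.7%. The part of excitatory neurons in the Gabra5 values was not tested.

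The beta subunits are needed in nearly all GABA-A receptors. Gabrb2 encodes beta2, a major beta subunit of the adult brain. It was at 830, 696 and 568 CPM in IP 1, 2 and 3, against 481 CPM in the Input. Every IP library was above the Input, with a mean of 698 ± 131 CPM (SD, n = 3) and the highest log2 fold of the 7, 0.54 ± 0.37 (SE; 95% interval -0.25 to 1.32).

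Gabrb1, the gene of beta1, a minor beta subunit in the cortex, was at 19.9, 13.8 and 30.5 CPM in IP 1, 2 and 3, against 22.3 CPM in the Input. IP 3 was above the Input and the others below, and the log2 fold of -0.059 ± 0.96 (SE; 95% interval -2.07 to 1.95) became 0.175 without IP 2. Its neighbour Gabra4, whose 5′ end it overlaps, was below the Input in each of the 3 IP libraries.

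Gabrd encodes delta, the partner of alpha4 in tonic receptors and a target of neurosteroids. It had 199, 172 and 23 counts in IP 1, 2 and 3 and 176 in the Input. These were the lowest of the 7 except in IP 2, where Gabrb1 had 129. Scaled, these were 8.67, 18.4 and 1.98 CPM, against 10.6 CPM in the Input, so IP 2 was above and IP 3 well below. The log2 fold of -0.13 ± 1.39 (SE; 95% interval -3.04 to 2.78) became 0.36 without IP 3, and its interval is the widest of the 7. IP 2, the library with the highest Gabrd, also had the highest summed levels among the IP libraries of the excitatory, astrocyte, oligodendrocyte and endothelial lists. But IP 3, the library with the lowest Gabrd, exceeded IP 1 in each of these sums. The sum of microglia markers was highest in IP 3, at 29.0, 31.1 and 72.0 CPM in IP 1, 2 and 3, against 122 CPM in the Input. For 16 astrocyte markers the sums were 1892, 3385 and 2149 CPM in IP 1, 2 and 3, against 3179 CPM in the Input. Most of each was Slc1a2, a glutamate transporter gene of astrocytes, and without it they were 512, 929 and 603 CPM in IP 1, 2 and 3, against 1057 CPM in the Input. For 12 of these 16 genes every IP library was lower than the Input, and for 0 was every one higher. The shares over all genes tested were 24.1% and 19.7%. For 16 endothelial and mural markers the sums were 281, 886 and 414 CPM in IP 1, 2 and 3, against 106 CPM in the Input. Of these 16 genes 11 lay above the Input in all 3, beside 19.7% of all genes tested. No marker of either list was at 0 throughout IP. The part of those cells in the Gabrd values was not tested.

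Of the 7 genes 1 lay above the Input in all 3 IP libraries and 3 lay below it, while among all genes tested 19.7% lay above and 24.1% below in all 3, or 43.8% on a single side. The median log2 fold of the 7 was -0.13, beside 0.083 for all genes tested. In bulk RNA of this kind, fewer cells of a type and less RNA per cell cannot be told apart.

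The 95% interval of each of the 7 folds held 0. For 6 of the 7, all but Gabrd, it ended below 2.31, the median log2 fold of 14 markers of GABAergic neurons. Of these 14 markers 5 were called higher by edgeR, beside 0.41% of all genes tested. All 14 lay above the Input in all 3 IP libraries, beside 19.7% of all genes tested. This list was chosen with earlier results of these data known, and its median is used without an error. Endothelial and mural markers had a median of 2.77, so a fold of that size is not particular to GABAergic neurons. Among all called genes the smallest log2 fold in size was 1.64. A rise as large as 1.64 thus lay outside the intervals of Gabra3, Gabra4, Gabra5 and Gabrb2 and inside those of Gabra2, Gabrb1 and Gabrd. A fall as large lay inside the intervals of Gabra4, Gabra5, Gabrb1 and Gabrd and outside those of Gabra2, Gabra3 and Gabrb2. For Gabra3 and Gabra4 this was by little, with lower limits of -1.62 and -1.65.

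**Figure D2:**
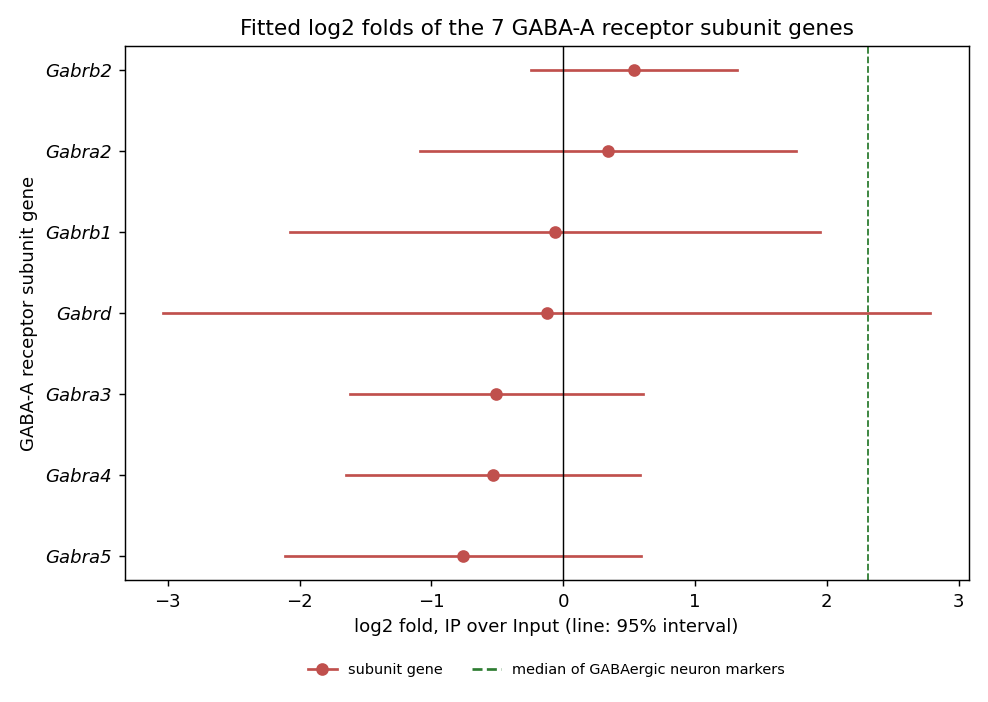
Fitted log2 fold of IP over Input (horizontal axis) with its 95% interval for the 7 subunit genes. The intervals of all 7 cross 0, and those of all but Gabrd end left of the dashed line at 2.31, the median of GABAergic neuron markers.

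Levels of different genes were compared per kilobase of exon (GENCODE M21). Gabrb2 was the most abundant of the 7 in both fractions, at 109.8 ± 20.6 CPM per kilobase in IP (SD, n = 3) and 75.6 in the Input. In IP it was followed by Gabra3 at 24.5 ± 7.59 and Gabra5 at 23.3 ± 14.1 CPM per kilobase, which did not differ beyond their spread and changed places without IP 1 or without IP 2. Next came Gabra4 at 14.1 ± 1.68 and Gabra2 at 8.05 ± 1.94 CPM per kilobase. Gabrd at 3.37 ± 2.87 and Gabrb1 at 1.55 ± 0.61 were the lowest, did not differ beyond their spread, and changed places when coding length was used. In the Input the order was the same except that Gabra5, at 39.5 CPM per kilobase, preceded Gabra3, at 34.8. By coding length that pair turned round in the Input, where Gabra3 held 30.8% and Gabra5 30.5% of the summed level of the 4 alpha genes.

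The 4 alpha genes were also set against each other as shares of their summed level per kilobase. Gabra2 held 11.3%, 10.5% and 12.7% in IP 1, 2 and 3, against 6.29% in the Input. All 3 IP libraries thus gave Gabra2 a larger share of these 4 genes than the Input did. Gabra3 held 43.5%, 42.0% and 22.3% in IP 1, 2 and 3 and 34.5% in the Input, and Gabra4 held 25.5%, 20.5% and 16.1% against 20.2%. Gabra5 held 19.6%, 27.0% and 48.9% in IP 1, 2 and 3, against 39.1% in the Input, so it was the smaller of Gabra3 and Gabra5 in IP 1 and IP 2 and the larger in IP 3 and the Input. These shares are a description with no test, and they move with the length used: by coding length Gabra2 held 22.1% in IP and 12.9% in the Input.

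**Figure D3:**
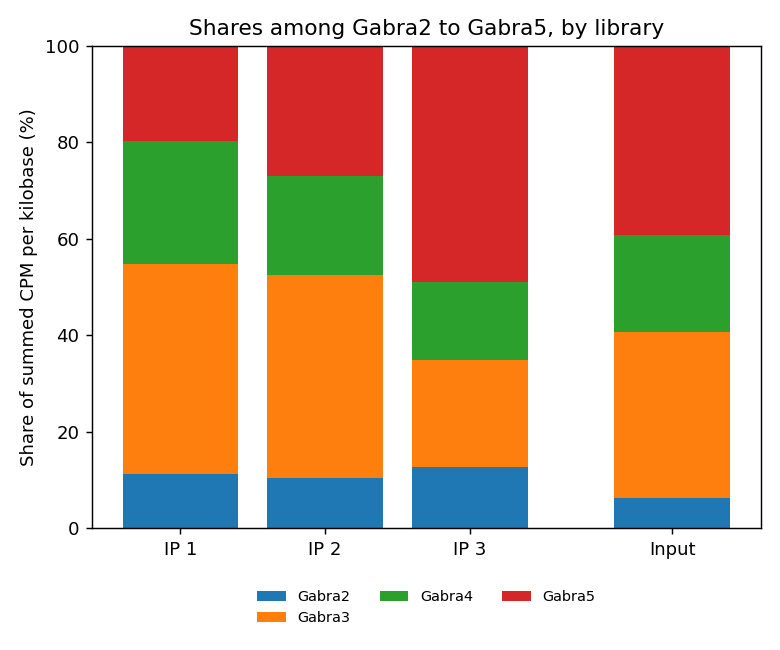
Share of the summed CPM per kilobase of exon (vertical axis, percent) that each of Gabra2, Gabra3, Gabra4 and Gabra5 holds, for the 3 IP libraries and the Input. Gabra2 holds more in every IP library than in the Input, and Gabra5 varies from 19.6% to 48.9% among the IP libraries.

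Pairs of the 7 genes were also set against each other within libraries, as the difference between their log2 ratios of IP to Input (0.5 CPM added). In all 21 pairs were computed, and every ratio shares the same Input. Only 8 of the 21 kept 1 side in all 3 IP libraries, and the pairs given below are among those 8. The other pairs changed side between IP libraries, such as Gabra5 less Gabrd at -1.6, -1.7 and 2.1 in IP 1, 2 and 3. Gabra2 exceeded its chromosome 5 neighbour Gabra4 by 0.51, 0.71 and 1.33 in IP 1, 2 and 3, a mean of 0.85 ± 0.43 (SD, n = 3), and Gabra5 by 1.26 ± 0.57. Gabra4 lay below Gabrb2 by a mean difference of -1.06 ± 0.26 (SD, n = 3) and Gabra3 lay below it by -1.07 ± 0.39. These pairs were chosen after their values were seen, and with a lone Input the differences have no test.

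Of 12 other GABA-A subunit genes, 7 were tested and 0 were called in either direction by edgeR, and DESeq2 and limma-voom also called 0 (0 at an unadjusted p under 0.05). Gabrg3, a less common gamma subunit gene, was at 61.6, 63.5 and 62.9 CPM in IP 1, 2 and 3, against 34.5 CPM in the Input (log2 fold 0.86 ± 0.70 SE). No count was found in any library for Gabra6, Gabre, Gabrp and Gabrr3, which allows at most 0.131, 0.321 and 0.259 CPM in IP 1, 2 and 3 and 0.180 CPM in the Input, for counting error only.

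Of 28 genes for the anchoring and traffic of GABA-A receptors 26 were found by symbol and tested. The number called was 0 by each of edgeR, DESeq2 and limma-voom, with 0 at an unadjusted p under 0.05. The median log2 fold was 0.31, beside 0.083 for all genes tested. It was 0.10 with upper-quartile factors and 0.050 with library totals, where all genes had -0.13 and -0.19. In all 3 IP libraries 10 of the 26 lay above the Input and 4 below, beside 19.7% and 24.1% of all genes tested. Among the most abundant were Nsf, a fusion ATPase that aids membrane insertion (1548 ± 110 CPM in IP and 1262 CPM in the Input), Gabarapl1, a relative of the receptor-associated protein GABARAP (568 ± 108 CPM in IP and 381 CPM in the Input), and Maged1 (488 ± 141 CPM in IP and 324 CPM in the Input), with SD over 3 IP libraries.

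Of 5 subunit genes of the related glycine receptors 4 were tested and 0 were called by edgeR, while 1 passed an unadjusted p under 0.05, 1 was called by DESeq2 and 0 by limma-voom. That gene was Glra2, the alpha2 subunit of glycine receptors, at 152, 103 and 34.1 CPM in IP 1, 2 and 3 against 8.22 CPM in the Input (log2 fold 3.55 ± 0.90 SE, edgeR adjusted p = 0.131). Glrb, the beta subunit, was at 167.9 ± 55.5 CPM in IP (SD, n = 3) and 148.2 CPM in the Input. Glra3 was at 0.087, 0.214 and 11.1 CPM in IP 1, 2 and 3 against 3.72 CPM in the Input, and Glra1 at 1.92, 1.18 and 5.00 CPM against 0.660 CPM.

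Set beside markers of cell types, the 7 genes had medians of the log2 ratio of -0.27, -0.095 and -0.039 in IP 1, 2 and 3. Those of 20 genes shared by all neurons were 0.062, 0.048 and 0.16, with 0 of 20 called. The markers of GABAergic neurons had 2.72, 2.08 and 2.26, and 14 markers of Vip interneurons and their lineage had 4.95, 3.97 and 4.31, with 11 called higher. Excitatory neuron markers lay at -1.22, -0.61 and -0.90, with 2 of 18 called lower. Markers of Sst and Pvalb interneurons (11 tested, 1 called higher) had -0.62, 0.49 and 0.38. Those of the oligodendrocyte lineage had -1.48, -0.86 and -1.09 and those of microglia -2.16, -2.87 and -1.71, with 0 called in either list. Astrocyte markers had -1.20, -0.55 and -1.07, with 0 called. Endothelial and mural markers had 1.14, 2.73 and 1.71, where edgeR and limma-voom called 0, DESeq2 called 2, and 5 passed an unadjusted p under 0.05 in edgeR.

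**Figure D4:**
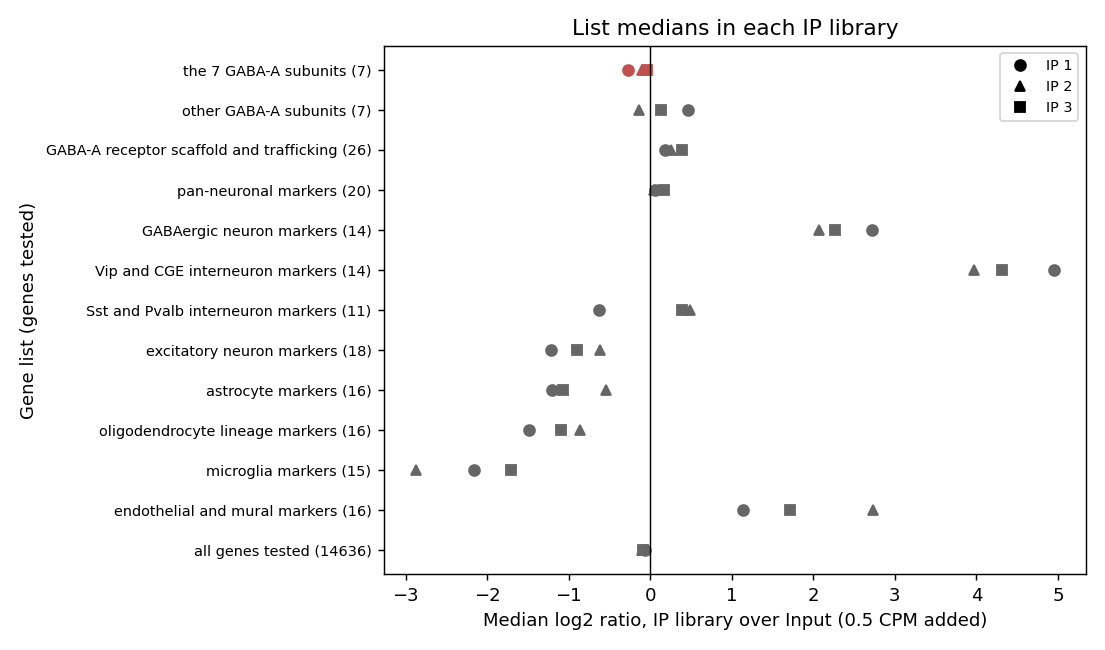
Median log2 ratio of each IP library over the Input (horizontal axis, 0.5 CPM added) for the 7 subunit genes and for lists of related genes and cell type markers, with 1 symbol per IP library. The 7 genes lie between -0.27 and -0.039, near all genes tested, while GABAergic neuron markers lie between 2.08 and 2.72.

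The genes most like Gabrb2 and Gabra5 across the 3 log2 ratios were sought by Euclidean distance among 10149 genes averaging 5 CPM or more. Gene models known only by a number, such as Gm and Rik names, or lacking a symbol were left out of the search. For Gabrb2 the most alike genes were Fem1b (distance 0.0662), Srek1ip1 (0.0707) and Fau (0.100). For Gabra5 they were Vipr1, which encodes a receptor for vasoactive intestinal peptide (0.160), Herc6 (0.208) and Tiam2 (0.247). Vipr1 had 54, 43 and 120 counts in IP 1, 2 and 3 and 166 counts in the Input. With 2 CPM added instead, 1 of the 3 genes most like Gabra5 was kept.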

How the data were processed

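Raw read counts for each gene were deposited, 1 library per file, with Entrez identifiers and symbols per the file headers. The submitters' processing notes name STAR 2.0.0e, HTSeq and mm10, while the table names hold the word subread, so which counter was used is unclear. The annotation used and the handling of strand and multiply mapped reads are not given in the sources used here. The 9 genes without a symbol took at most 0.0221% of the counts of a library.

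With edgeR 4.0.16 in R 4.3.3, counts were filtered with filterByExpr (minimum count 10), scaled by TMM and tested over the whole table, IP against Input, two-sided, with a threshold of 0.05 (2 residual degrees of freedom, prior 17.0). The script was tested on simulated data with known changes. Those changes were larger than the folds of the 7 genes, and the simulated spread between libraries was smaller than in these data. The simulation thus does not show whether folds of the size seen here could be found. The SE is the log2 fold over the root of its F value. Exon lengths, coordinates and overlaps came from GENCODE M21 (GRCm38), and promoter windows from RefSeq, matched by symbol for all 7 genes. No library was a copy of another (chi-square per degree of freedom at least 84.7). Alternatives were DESeq2 1.42.0, limma-voom (limma 3.58.1), other scalings, filters, priors, thresholds and lengths, and leaving out each IP library. Marker sums without the most abundant gene were added after the data were seen.

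The genes and lists were chosen with earlier results of these data known. Named were the 7 genes, Crh, Gad1, Gad2 and Slc17a7, called and the 4 most abundant other members of the related lists, and the 3 most alike genes. Some genes under it are not reported here. Subunits without counts were named after their values were seen.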

Additional observations from a re-analysis of the deposited data

How the results depend on the processing

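Calls of the 7 subunit genes did not depend on the setting: 0 of 7 were called under the fit as reported and under each of 13 alternatives, where the lowest adjusted p of any of them was 0.960. The fold kept its direction under all 13 for Gabra2 (0.064 to 0.49), Gabra3 (-0.79 to -0.32), Gabra4 (-0.81 to -0.46), Gabra5 (-1.33 to -0.43) and Gabrb2 (0.27 to 0.67). Among the 13, the threshold of 0.01 reuses the reported fit, so it could neither change a fold nor add a call. A robust prior left the folds of the 7 genes as reported. That of Gabrb1 ran from -0.40 to 0.175 and was above 0 without IP 2, and that of Gabrd ran from -0.98 to 0.36 and was above 0 without IP 3. The median log2 fold of the 7 was -0.55 with limma-voom, -0.35 with upper-quartile factors and -0.41 with library totals, and from -0.63 to -0.075 when an IP library was left out. The median of all genes, 0.083 as reported, was -0.14 with limma-voom, -0.13 with upper-quartile factors and -0.19 with library totals. The count of 67 genes called became 182 by DESeq2, 108 when low counts were not filtered, 39 at an adjusted p under 0.01, and 90 to 210 when an IP library was left out. Glra2 was also called when low counts were not filtered and when IP 2 or IP 3 was left out. The lengths used for shares among the alpha genes were varied after the data were seen. No paired analysis was possible because there was a single Input library for the 3 IP libraries. The intervals assume that the lone Input varies like the IP libraries, and at the depth of Gabrd, with as few as 23 counts in a library, log2 folds from -3.04 to 2.78 were within its interval.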
